A study of Mus musculus with 8 samples.

Results

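The interleukin-17 (IL-17) axis was read here as 9 genes measured in mouse forepaw skin: the cytokine genes Il17a, Il17f, Il17c and Il23a, the receptor genes Il17ra, Il17rc and Il17re, the adaptor gene Traf3ip2 and the nuclear regulator gene Nfkbiz. They were taken as the non-control probe sets whose array annotation names a listed gene, which gave 9 probe sets, 1 for each of the 9 genes, among 30702 genes tested. The samples were paw skin with lesions from 4 Krt16 null mice and normal paw skin from 4 wild-type (WT) littermates, all C57Bl/6 and aged 8 weeks, with 2 males and 2 females of each genotype and 1 single-colour array per mouse. In the null allele, present in every cell, bacterial LacZ stands in place of the coding sequence of Krt16, the gene of a type I keratin of palm, sole and wounded epidermis. All null samples carried the label lesion and all WT samples the label normal. Effects of the genotype and of the lesion therefore cannot be told apart.

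Type 17 lymphocytes of the skin make IL-17A and IL-17F when IL-23 acts on them, while IL-17C comes from epithelial cells themselves. The cytokines bind receptor pairs built on IL-17RA, with IL-17RC for IL-17A and IL-17F and IL-17RE for IL-17C, and the receptors signal through the adaptor Act1, encoded by Traf3ip2. In keratinocytes the signal induces IkappaB-zeta, the product of Nfkbiz, which works in the nucleus with NF-kB to switch on antimicrobial peptide, chemokine and IL-36 genes.

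Values are log2 signals, and each difference is the mean of null minus that of WT, given with its standard error (SE) and tested with limma, sex being a covariate. Called means an adjusted p under 0.05 (Benjamini-Hochberg, over all 30702 genes). On the 8 arrays the negative control probe sets had medians of 4.26 to 4.46 and 95th percentiles of 7.26 to 7.43. Il17rc was above the 95th percentile on all 8 arrays, and the other 8 members were below it on all 8. Krt16 itself gave 6.83 and 6.88 in male null and 6.89 and 6.99 in female null skin, against 8.48 and 8.20 in male WT and 7.05 and 9.66 in female WT skin (difference -1.45, limma adjusted p = 0.0615). The 8 keratinocyte markers averaged 11.15 to 11.22 in null and 11.02 to 11.25 in WT arrays and were above the negative control medians throughout. Female WT 1 stood apart from the other WT arrays: its 8 neutrophil markers averaged 5.80, against 4.41 to 4.48 on the other WT arrays and 4.58 to 5.09 on the null arrays.

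Of the 9 genes, 3 rose in null lesions, 0 fell and 6 did not pass the test. Nfkbiz rose by 0.58, Il17rc by 0.37 and Il23a by 0.31, while Il17a, Il17f, Il17c, Il17ra, Il17re and Traf3ip2 were not called. Over all genes 7.07% were called higher and 5.98% were called lower, against 33.3% and 0 of the members. The members were chosen with earlier results of these data known, so these shares describe them and are not a test. The median difference of the members was 0.04, against 0.01 over all genes. The same 3 members had every null signal above every WT signal and 0 the opposite, against 10.1% and 8.76% of all genes (18.9% in either direction). An unadjusted p under 0.05 was reached by 4 of the 9 members, the fourth being Il17c, against 26.6% of all genes. In bulk skin, more cells of a type and more RNA per cell cannot be told apart.

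**Figure D1:**
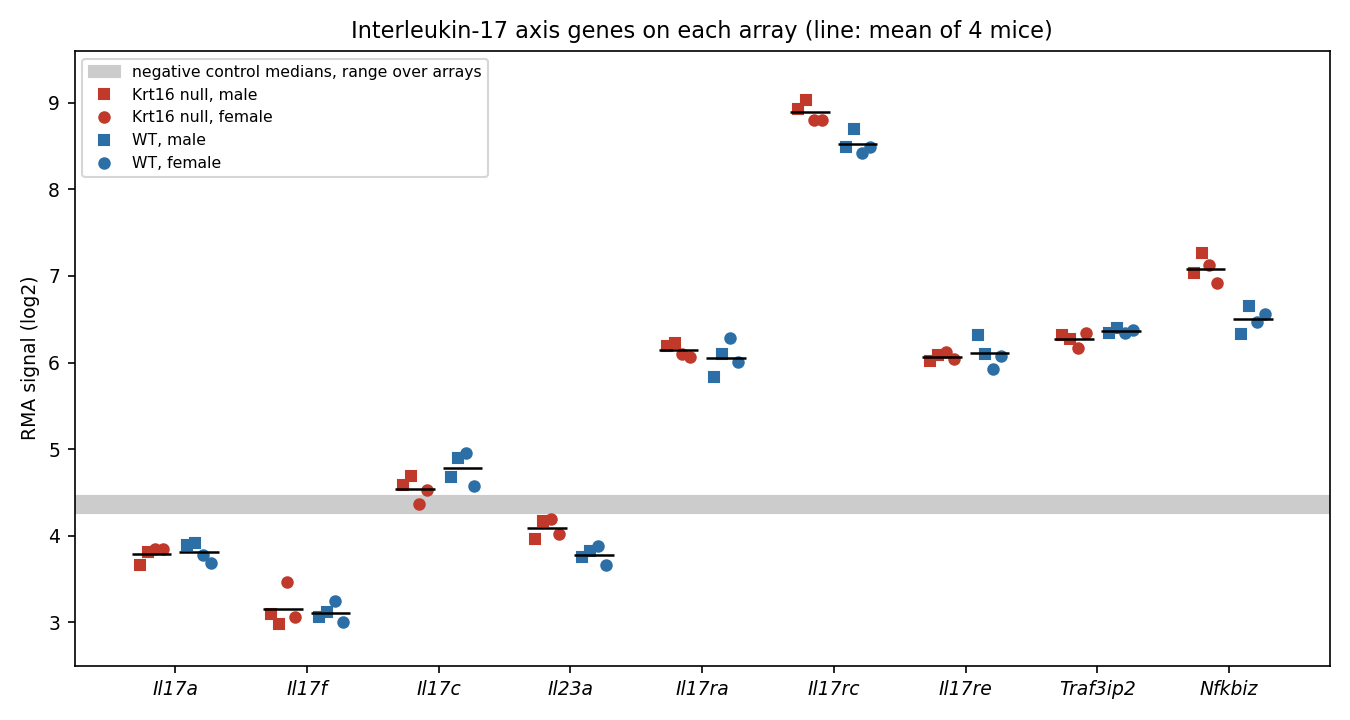
RMA signal (log2) of each of the 9 genes on each array, with Krt16 null arrays in red left of WT arrays in blue, males as squares, females as circles and the mean of 4 mice as a black line. In Nfkbiz, Il17rc and Il23a the null points lie above the WT points without overlap, and Il17a, Il17f and Il23a lie under the grey band of negative control medians. Heights of different genes are not comparable, since each has its own probes.

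The cytokine genes were dim, with Il17a, Il17f and Il23a among the 38.8% of all genes below the negative control median on all 8 arrays. Il17a, the gene of the signature cytokine of type 17 cells, gave 3.67 and 3.81 in male null and 3.84 and 3.84 in female null skin, against 3.89 and 3.92 in male WT and 3.77 and 3.69 in female WT skin. The null and WT ranges overlapped, and all 8 signals were below the negative control median of their own array, at the 35.9th to 40.5th percentile of the negative controls in null and the 33.4th to 42.6th in WT arrays. The difference of -0.03 (SE 0.07, limma adjusted p = 0.873) had a 95% confidence interval of -0.19 to 0.14. Il17f, its close relative and neighbour on the chromosome, gave 3.10 and 2.99 in male null and 3.47 and 3.06 in female null skin, against 3.07 and 3.12 in male WT and 3.25 and 3.01 in female WT skin. These values also overlapped, all below the negative control medians, with a difference of 0.04 (SE 0.10, limma adjusted p = 0.844) and an interval of -0.18 to 0.26. Neither cytokine gene passed the test at these low signals, which does not show that its transcript did not change.

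Il17c, the epithelial member of the family, gave 4.59 and 4.69 in male null and 4.37 and 4.53 in female null skin, against 4.68 and 4.90 in male WT and 4.95 and 4.58 in female WT skin. All 8 signals were just above the negative control median of their array, by 0.22 on average in null and 0.45 in WT arrays, and the genotypes overlapped. The difference was -0.24 (SE 0.10, limma adjusted p = 0.156, unadjusted p = 0.0377), with an interval of -0.45 to -0.02. The estimate thus pointed down, and the call missed the threshold.

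Il23a encodes the subunit that is particular to IL-23. It gave 3.96 and 4.18 in male null and 4.19 and 4.02 in female null skin, against 3.75 and 3.82 in male WT and 3.88 and 3.66 in female WT skin. Each null array was above each WT array, and yet all 8 signals were below the negative control median of their array, so the size of the rise is not exact. The mean was 4.09 ± 0.11 in null and 3.78 ± 0.09 in WT skin (SD, n = 4 each), a difference of 0.31 (SE 0.08, limma adjusted p = 0.0297). The call was lost without male null 2, female null 1, male WT 1, male WT 2 or female WT 2. The limma adjusted p was then 0.101, 0.0953, 0.0873, 0.0566 and 0.0657, with differences of 0.26 to 0.33. Fewer genes were called higher with these arrays left out, 1209 to 1939 against 2170 with all 8. The call of Il23a was also lost when all non-control probe sets were tested (limma adjusted p = 0.0526).

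Among the receptors, Il17rc was measured well above background and rose. It gave 8.92 and 9.04 in male null and 8.80 and 8.80 in female null skin, against 8.48 and 8.69 in male WT and 8.42 and 8.49 in female WT skin. The lowest null array was above the highest WT array, and its signals were above 98.5% to 98.7% of the negative controls in null and 98.2% to 98.5% in WT arrays. The mean was 8.89 ± 0.12 in null and 8.52 ± 0.12 in WT skin (SD, n = 4 each), a difference of 0.37 (SE 0.06, limma adjusted p = 0.00632), or 1.29-fold. Il17rc kept its call without any single array, with an adjusted p of 0.0101 to 0.0272. Repeated quantile normalization gave the smallest difference of all settings run, 0.28 (limma adjusted p = 0.0177).

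Il17ra, the shared receptor chain, gave 6.19 and 6.22 in male null and 6.10 and 6.06 in female null skin, against 5.84 and 6.10 in male WT and 6.28 and 6.01 in female WT skin. The WT values enclosed the null values, and the difference was 0.09 (SE 0.09, limma adjusted p = 0.639; interval -0.12 to 0.30). Il17re, the partner chain for IL-17C, gave 6.02 and 6.08 in male null and 6.12 and 6.04 in female null skin, against 6.32 and 6.09 in male WT and 5.93 and 6.08 in female WT skin. Here too the WT arrays spread on both sides of the null arrays, with a difference of -0.04 (SE 0.08, limma adjusted p = 0.832; interval -0.21 to 0.14). The interval for Il17rc, 0.23 to 0.50, did not overlap that of Il17re, although no test of the difference between these 2 genes was run.

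Il17re and Il17rc are direct neighbours on mouse chromosome 6, on the same strand, with 0 annotated genes between them, and Il17rc was called while Il17re was not. Their promoter windows are shown for that reason, with matches to the GC box GGGCGG in capitals. Each runs from 250 bases before to 50 after an annotated start (RefSeq, build GRCm38.p6, plus strand). They are chr6:113471205-113471504 for Il17rc and chr6:113458521-113458820 for Il17re. The Il17re gene is annotated from position 113458699, upstream of the start used for its window.
Il17rc: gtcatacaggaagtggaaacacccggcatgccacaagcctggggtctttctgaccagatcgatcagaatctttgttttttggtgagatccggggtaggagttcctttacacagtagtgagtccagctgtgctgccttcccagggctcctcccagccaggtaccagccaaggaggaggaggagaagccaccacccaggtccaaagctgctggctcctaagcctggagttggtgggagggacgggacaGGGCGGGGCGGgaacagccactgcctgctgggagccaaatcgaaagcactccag
Il17re: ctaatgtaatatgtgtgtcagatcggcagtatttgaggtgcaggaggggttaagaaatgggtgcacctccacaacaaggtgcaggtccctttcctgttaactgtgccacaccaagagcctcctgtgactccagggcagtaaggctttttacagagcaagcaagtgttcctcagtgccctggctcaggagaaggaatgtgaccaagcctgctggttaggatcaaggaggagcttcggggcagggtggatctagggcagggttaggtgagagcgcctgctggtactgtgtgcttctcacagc
The Il17rc window held 2 GC box matches that overlap each other across the start site, beginning at positions -4 and 2, and the Il17re window held 0. Of 32851 promoter windows in the RefSeq table, 35.7% held this box on either strand. G and C made up 58.7% of the Il17rc window and 53.7% of the Il17re window, against a median of 52.7% over all windows. The NF-kB consensus (in 4.51% of all windows), the AP-1 motif TGANTCA (7.81%), the STAT motif TTCNNNGAA (8.3%) and the C/EBP motif TTGCNNAA (10.8%) were searched on both strands and had 0 matches in these windows. Sequence matches describe these windows only and were not tied to the signals by any test. Promoter windows were found for 5 members, those printed and those of Il17a, Il17f and Il17c.

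Traf3ip2, whose product Act1 links the receptors to TRAF proteins, gave 6.31 and 6.28 in male null and 6.17 and 6.34 in female null skin, against 6.34 and 6.40 in male WT and 6.34 and 6.37 in female WT skin. The genotypes overlapped, and the SD was 0.07 in null and 0.03 in WT arrays, the smallest WT spread of the 9 genes. The difference of -0.09 (SE 0.06, limma adjusted p = 0.387) had an interval of -0.21 to 0.04.

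Nfkbiz had the largest difference of the 9. It gave 7.03 and 7.26 in male null and 7.13 and 6.92 in female null skin, against 6.33 and 6.65 in male WT and 6.47 and 6.56 in female WT skin. The genotypes did not overlap: the lowest null signal was 6.92 and the highest WT signal 6.65. The mean was 7.08 ± 0.15 in null and 6.50 ± 0.14 in WT skin (SD, n = 4 each), a difference of 0.58 (SE 0.09, limma adjusted p = 0.00477), or 1.496-fold. Nfkbiz kept its call without any single array, with differences of 0.50 to 0.64 and an adjusted p of 0.00724 to 0.0220. Its difference was larger than those of 79.3% of the genes called higher, against 48.9% for Il17rc and 33.7% for Il23a. Without female WT 1, the array with high neutrophil markers, the differences were 0.58 for Nfkbiz, 0.36 for Il17rc and 0.35 for Il23a, all called.

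**Figure D2:**
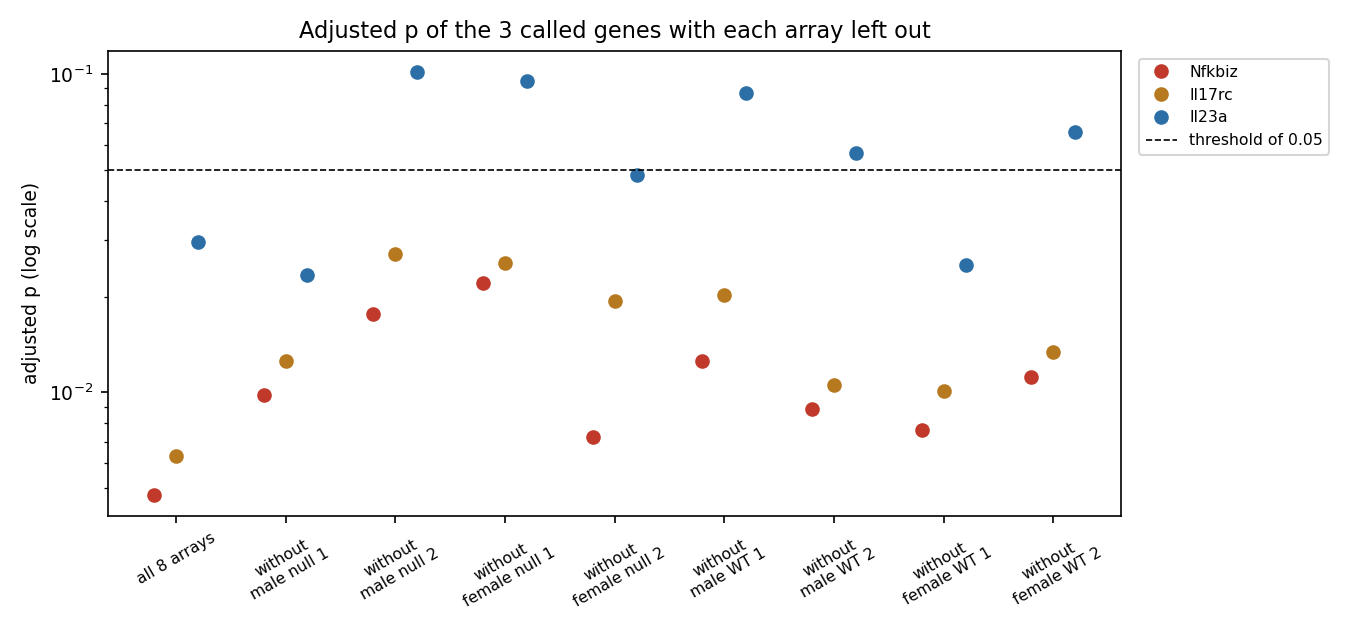
Adjusted p (log scale) of Nfkbiz, Il17rc and Il23a with all 8 arrays and with each array left out in turn; the dashed line is the threshold of 0.05. Nfkbiz and Il17rc stay under the line throughout, and Il23a is above it in 5 of 8 cases.

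The genotype differences were next taken in each sex, with 2 arrays per group and 1 shared spread. Nfkbiz was higher in null by 0.66 in males and 0.51 in females, Il17rc by 0.39 and 0.34, and Il23a by 0.28 and 0.34. With 2 mice a group, none of these 3 passed within 1 sex (limma adjusted p 0.0517 to 0.247). Il17a pointed in opposite directions, with both male null arrays below both male WT arrays (-0.17) and both female null arrays above both female WT arrays (0.11). The test of that difference between the sexes gave -0.28 (SE 0.11, unadjusted p = 0.0387, limma adjusted p = 0.974), at signals that were all below the negative control medians. In limma, 0 of the 9 members differed between the sexes after adjustment and 1 had an unadjusted p under 0.05, against 0.00651% and 4.26% of all genes.

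Other ligand and receptor genes of the family were compared as background to the 9, where 13.1% of all genes were called in either direction. Of 3 other ligand genes 0 rose and 0 fell, and 0 had an unadjusted p under 0.05 in limma; the 2 with the smallest p were Il17d (-0.13, adjusted p = 0.346) and Il17b (0.04, adjusted p = 0.732). Of the 2 other receptor genes, Il17rb, which encodes the chain that binds IL-17B and IL-25, fell by 0.27 (SE 0.07, limma adjusted p = 0.0324). It ranged from 4.88 to 5.10 in null and from 5.22 to 5.42 in WT skin, without overlap. This call was lost without any 1 of 6 arrays, all but female null 2 and male WT 1 (adjusted p 0.0560 to 0.102). Il17rd was at -0.16 (adjusted p = 0.157).

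Genes that pair with IL-23 or drive type 17 cells changed in part: of 14 measured, 3 rose and 1 fell. Over all genes, 7.07% were called higher and 5.98% lower. The median difference of the 14 was 0.05, against 0.01 over all genes. Il23r, the receptor chain for IL-23, ranged from 3.57 to 3.85 in null and from 3.13 to 3.52 in WT arrays and rose by 0.45 (SE 0.10, limma adjusted p = 0.0169). Like Il23a it was below the negative control medians on every array, and it lost its call without male null 2, female null 1 or male WT 1 (adjusted p 0.0590 to 0.0609). Il1b, a cytokine that acts with IL-23 on type 17 cells, ranged from 4.73 to 6.68 in null and from 3.42 to 3.92 in WT skin and rose by 2.22 (SE 0.37, limma adjusted p = 0.00565). All 4 WT signals of Il1b were below the negative control medians, so the size of this rise is not exact. Stat3, the transcription factor activated by IL-23 and IL-6, rose by 0.26 (SE 0.05, limma adjusted p = 0.0127), and Rora, a nuclear receptor that many skin cells express, fell by 0.73 (SE 0.07, limma adjusted p = 0.000349). Il12b, the other subunit of IL-23, was at 3.94 in null and 3.86 in WT skin, below the negative control medians, with a difference of 0.08 (adjusted p = 0.498). Il22 and Il21, further type 17 cytokine genes named here after their values were seen, had differences of 0.06 and -0.01 at signals in the same low range.

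Markers of the cells that make IL-17 were set beside these values. Of 13 measured T cell and type 17 markers, 4 rose and 0 fell, where 7.07% of all genes were called higher and 5.98% lower. Their median difference was 0.13, against 0.01 over all genes. The mean signal of the 13 was 4.56 to 4.74 in null and 4.39 to 4.45 in WT arrays, without overlap. Below the negative control medians on every array were 6 of the 13, where 38.8% of all genes were. These were Cd3d, Cd4, Ccr6 and the called genes Cd3g, Il18r1 and Il23r, whose sizes of change are therefore not exact. The risers were Il7r, the receptor chain for IL-7 (1.21, adjusted p = 0.00054), Il23r, Il18r1, the receptor gene for IL-18 (0.31, adjusted p = 0.00612), and Cd3g of the T cell receptor complex (0.20, adjusted p = 0.0387). Cd3g lost its call without any array but male null 1 (adjusted p 0.0590 to 0.116) and had an adjusted p of 0.0537 with same-numbered mice as pairs. The T cell receptor constant genes were not analysed here. The part of T cell content in the rises of Il23a and Il23r was not tested.

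Below the receptors, of 17 measured signalling genes of the Act1 pathway 2 rose and 2 fell, with a median of 0.03, where 13.1% of all genes were called in either direction. Traf6, the ubiquitin ligase recruited by Act1, rose by 0.31 (SE 0.08, limma adjusted p = 0.0277), and Ikbke, a kinase that phosphorylates Act1, by 0.25 (SE 0.06, limma adjusted p = 0.0265). Mapk8, encoding the kinase JNK1, fell by 0.37 (SE 0.08, limma adjusted p = 0.0164) and Tab2, a binding protein of the kinase TAK1, by 0.20 (SE 0.06, limma adjusted p = 0.0494). All 4 lost their call without some arrays: Mapk8 without male null 2 or female null 1, Traf6 without male null 1, female null 1, female null 2 or male WT 1, Ikbke without any but male null 1 and female WT 1, and Tab2 without any but female WT 1. With same-numbered mice as pairs, Tab2 had an adjusted p of 0.0544.

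Genes listed here as restraints on the pathway included larger differences, and their action in this skin was not tested. Of 7 measured, 2 rose and 1 fell, with a median of 0.11, where 7.07% of all genes were called higher and 5.98% lower. Zc3h12a, which encodes the ribonuclease Regnase-1 that degrades inflammatory mRNAs, had 6.64 and 6.88 in male null and 6.80 and 6.53 in female null skin, against 5.92 and 6.09 in male WT and 5.77 and 5.86 in female WT skin. It rose by 0.80 (SE 0.08, limma adjusted p = 0.000619), without overlap, and kept its call without any single array. Tnfaip3, encoding the deubiquitinase A20, ranged from 5.27 to 5.78 in null and from 4.96 to 5.09 in WT skin and rose by 0.55 (SE 0.11, limma adjusted p = 0.0134). Btrc, encoding a ubiquitin ligase subunit, fell by 0.25 (limma adjusted p = 0.0373), a call lost without male null 2, female null 1, female null 2, male WT 1 or female WT 1 (adjusted p 0.0762 to 0.120). In the family of IkappaB and NF-kB genes, 2 of 9 others rose and 0 fell, against the same shares of all genes. Their median was 0.22. Bcl3, a nuclear IkappaB protein like the Nfkbiz product, had 6.06 and 6.36 in male null and 6.23 and 6.23 in female null skin, against 5.28 and 5.21 in male WT and 5.36 and 5.12 in female WT skin. Bcl3 rose by 0.98 (SE 0.08, limma adjusted p = 0.000173) and Nfkb2, the precursor of p52, by 0.63 (SE 0.07, limma adjusted p = 0.000876). Nfkbia, encoding the classical cytoplasmic inhibitor, was at 0.23 (adjusted p = 0.190).

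**Figure D3:**
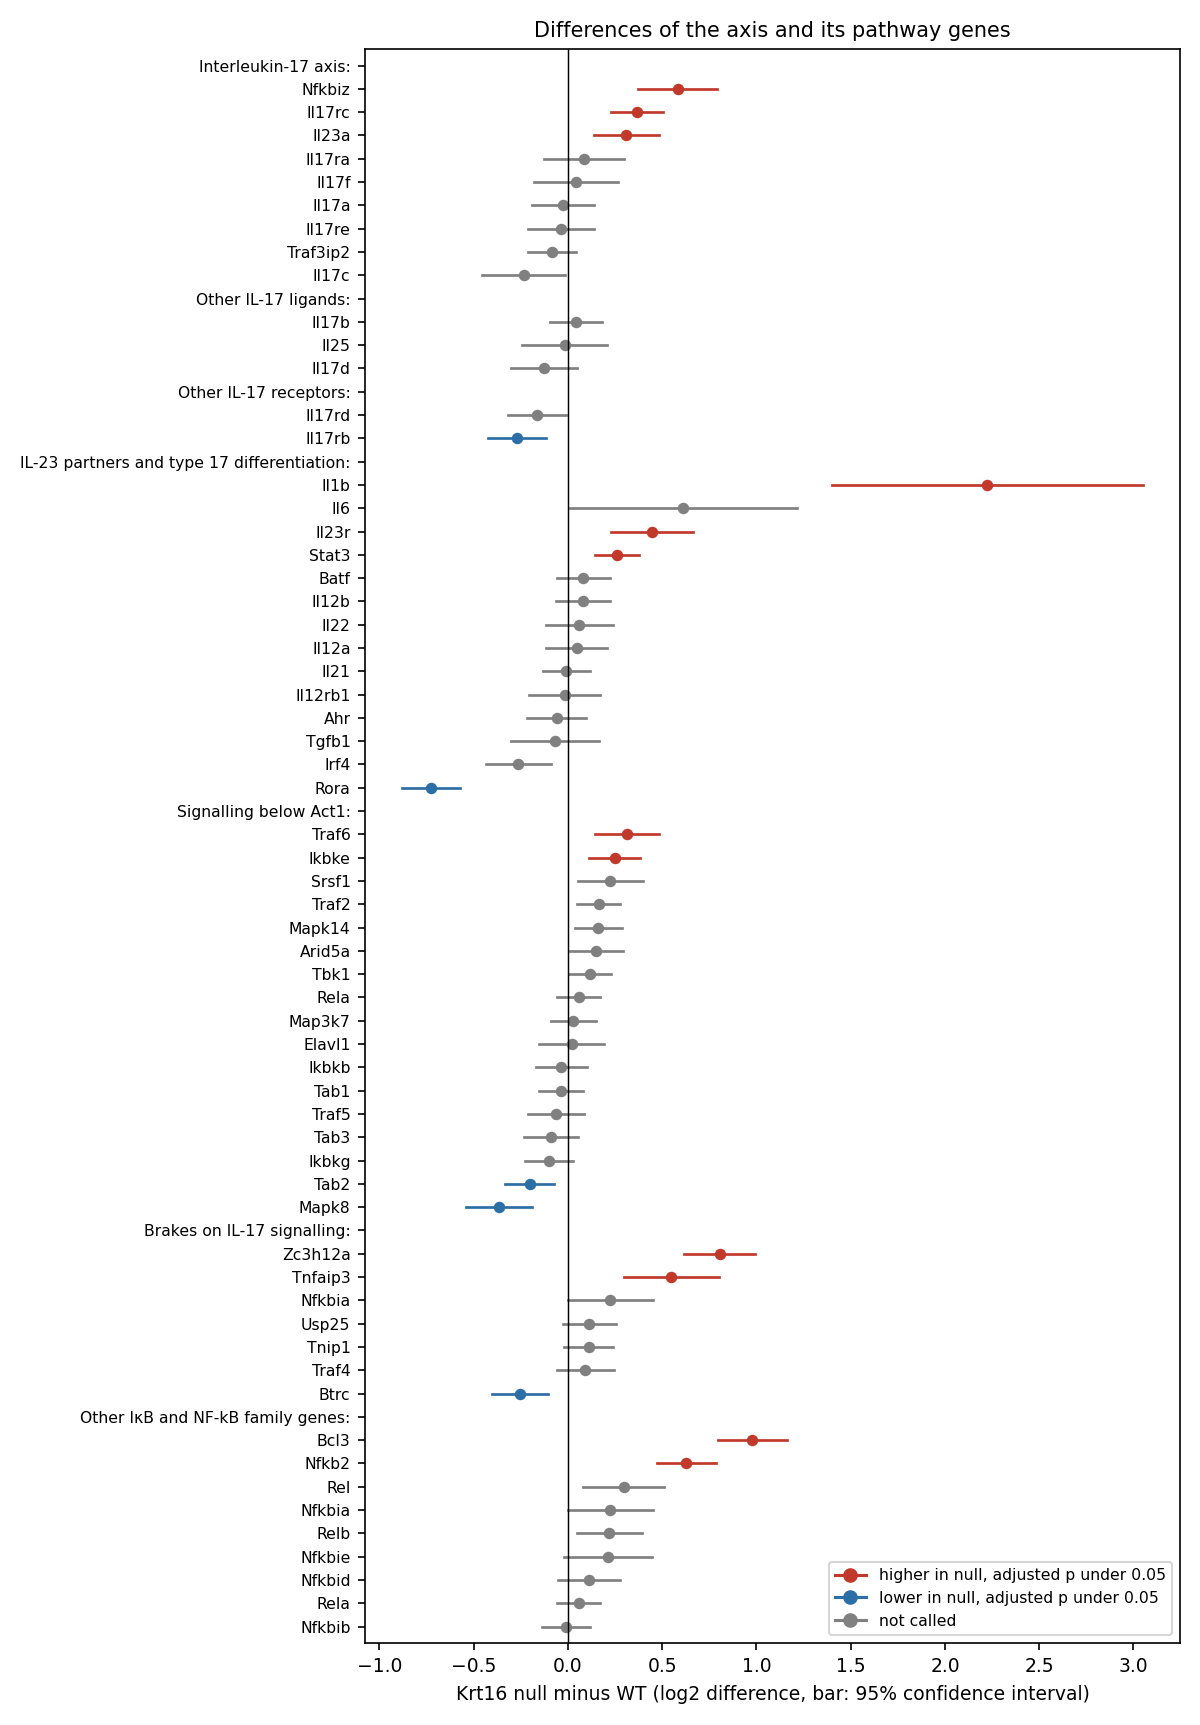
Null minus WT difference (log2) with its 95% confidence interval for the 9 genes and 6 groups of pathway genes, red where higher and blue where lower in null at an adjusted p under 0.05, grey where not called. Il1b, Bcl3 and Zc3h12a lie farthest to the right and Rora farthest to the left; Nfkbia and Rela appear in 2 groups.

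The response genes listed for IL-17 in keratinocytes were mostly higher. Of 30 measured, 20 rose, 0 fell and 10 did not pass, where 7.07% of all genes were called higher and 5.98% lower. The list was chosen with earlier results of these data known, so its count describes it and is not a test. The median difference of the 30 was 0.88, against 0.01 over all genes. Each of the 30 is also induced by other signals. The 4 largest measured differences were those of S100a8 (5.69) and S100a9 (5.40), the calprotectin subunits, and of the beta-defensin genes Defb4 (3.53) and Defb3 (2.79), at limma adjusted p of 0.00304, 0.00274, 0.000666 and 0.00165. S100a8 had 10.73 and 11.44 in male null and 11.18 and 10.87 in female null skin, against 3.25 and 4.30 in male WT and 8.70 and 5.21 in female WT skin. The null arrays were alike, while the WT arrays differed widely, with female WT 1 the highest. S100a8 was above the negative control median on only 2 of 4 WT arrays, and S100a9 and Defb4 on 3 of 4, so these sizes and their order are not exact. With 1 array left out, the difference of S100a8 was 5.16 to 6.71 and that of S100a9 4.93 to 6.39, called each time. Female WT 1 was the lowest array for Defb4, which had 8.50 and 9.05 in male null and 8.71 and 8.74 in female null skin, against 5.87 and 5.40 in male WT and 3.82 and 5.79 in female WT skin. Without female WT 1 the count of risers was 20, and without male WT 1 it was 13.

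Cytokine and chemokine genes of this list, named here after their values were seen, were divided. Il19 (2.67), Il24 (1.88), Cxcl1 (1.19), Cxcl2 (0.83), Cxcl5 (0.82) and Ccl2 (0.47) rose; the WT signals of Il19, Il24, Cxcl2 and Cxcl5 were below the negative control medians on all 4 arrays. Others did not pass. Ccl7 (0.69, limma adjusted p = 0.0604), Il6 (0.61, adjusted p = 0.181), Cxcl3 (0.24, adjusted p = 0.173) and Il20 (0.17, adjusted p = 0.336) pointed up without a call. Ccl20, the ligand of the type 17 cell receptor CCR6, had a difference of 0.07 (adjusted p = 0.628), Csf2 of 0.03 (adjusted p = 0.859) and Csf3 of -0.03 (adjusted p = 0.810). Signals of Ccl20, Csf2, Il6 and Il20 were below the negative control medians on every array, so a change could have been missed. The 3 IL-36 genes, also targets of IkappaB-zeta, were above the negative control medians on all 8 arrays and rose: Il1f9 (Il36g) by 1.60, Il1f6 (Il36a) by 0.92 and Il1f8 (Il36b) by 0.30, at limma adjusted p of 0.000139, 0.000857 and 0.0392.

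**Figure D4:**
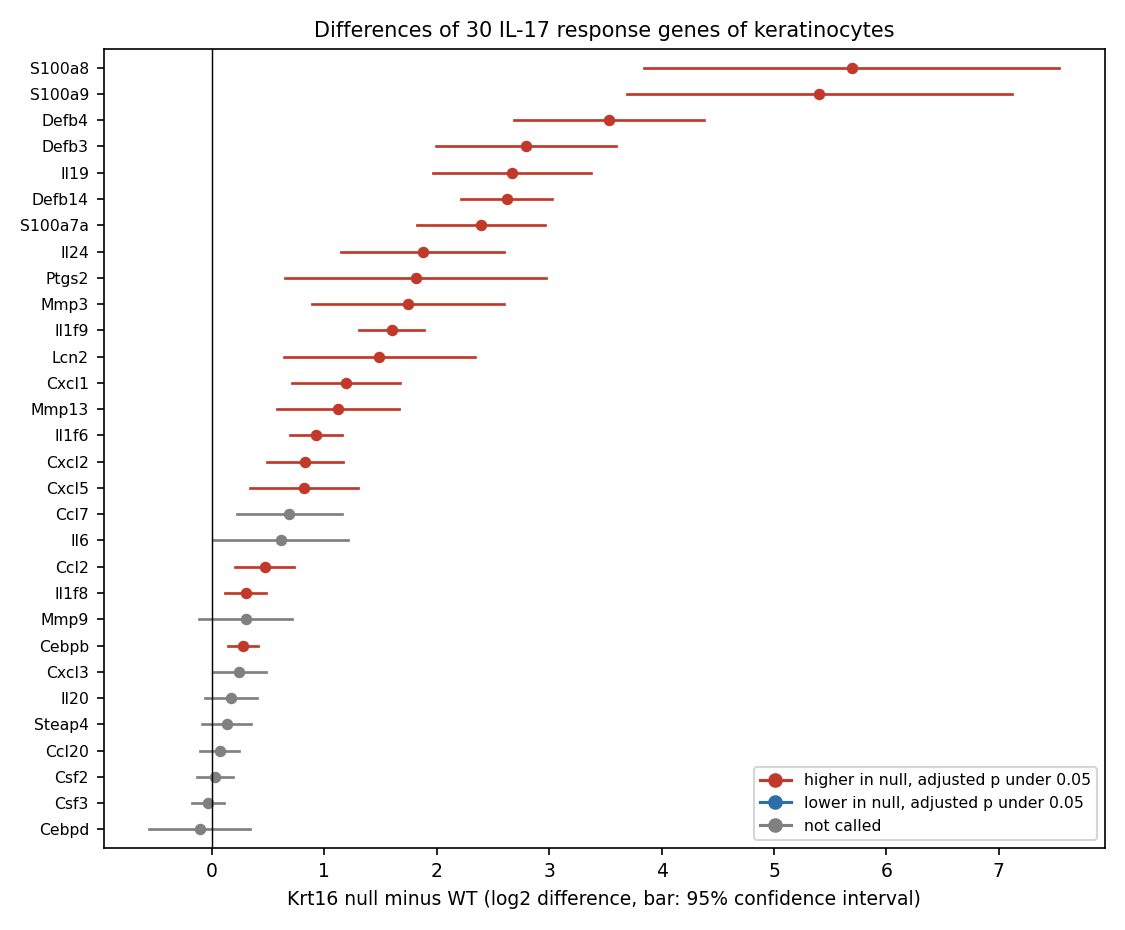
Null minus WT difference (log2) with its 95% confidence interval for the 30 response genes, sorted by size, red where higher in null at an adjusted p under 0.05 and grey where not called. The 20 called genes all lie right of 0, led by S100a8 and S100a9, and 0 genes are called lower.

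Markers of other cell types were counted in the same way, where 13.1% of all genes were called. Of 10 skeletal muscle markers 0 rose and 8 fell (median -0.89), and their mean signal was 8.58 to 9.19 in null and 9.41 to 10.19 in WT arrays, without overlap. Of 9 markers of macrophages, Langerhans and dendritic cells 4 rose and 1 fell (median 0.14), with overlapping mean signals of 5.50 to 6.09 in null and 5.65 to 6.01 in WT arrays. This mean joins opposite changes, named here after their values were seen. Itgax (0.79), H2-Ab1 (0.65), Cd207 (0.29) and Flt3 (0.23, below the negative control medians on every array) rose, and Cd163 (-0.97) fell. The 4 not called ran from -0.40 (Csf1r) to 0.14 (Cd68). Of 8 neutrophil markers 1 rose (median 0.07), of 5 fibroblast markers 1 fell (median -0.11) and of 8 keratinocyte markers 0 were called (median 0.04; 0 also had an unadjusted p under 0.05 in limma). The part of the lower muscle signal in the rises of Nfkbiz, Il17rc and Il23a was not tested.

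By the Pearson correlation over the 8 arrays, the genes most like Nfkbiz were Snd1 (r = 0.991), encoding an RNA-binding nuclease-like protein, Fbxo34 (0.989) and Nol10 (0.988). Those most like Il17rc were Btbd19 (0.990), the chaperonin subunit gene Cct7 (0.990) and the nucleosome-binding protein gene Hmgn1 (0.987). Those most like Il23a were Cd300lf (0.996), an inhibitory receptor gene of myeloid cells, the atypical protein kinase C gene Prkcz (0.981) and the long non-coding RNA gene Mirt1 (0.971). Members, provisional symbols, small RNAs, olfactory and vomeronasal receptor genes and pseudogenes were passed over in this ranking. The values are the highest among the rest of the 30702 genes, on 8 arrays that fall into 2 genotypes. They are given as a description. Of these 9 correlated genes, 8 were themselves called higher in null, by 0.21 to 0.44, and Prkcz was not (0.12, adjusted p = 0.215).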

How the data were processed

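RNA from paw skin of 8 mice was labelled with biotin and read on 1 Affymetrix array per mouse. The deposited values are log2 signals per probe set; Partek and RMA are named in the submitters' processing notes as the authors' tools, without versions, settings or a genome build. RMA can compress large differences. Of 72688 probe sets, 6732 controls (5222 of them negative) were left out. Symbols came from the array annotation, updated through RefSeq (GRCm38.p6, used for names, neighbours and promoter sequences), which left 31258 probe sets of a single gene, for 30702 genes; where a gene had several (441 genes), that with the highest mean signal was used; probe sets of several genes were not named. All 9 members had 1 probe set.

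limma 3.58.1 in R 4.3.3 (lmFit, eBayes with intensity trend) was fitted on all genes with sex as a covariate; a fit of 4 group means gave the effects by sex. The script was tested on simulated data. Members and lists were chosen with earlier results of these data known, so no list was tested: counts and medians describe it. Named were all members, up to 4 called genes in each direction per pathway list (or the 2 smallest p), and the called T cell and type 17 markers. Also named were the 3 genes most correlated with each called member, after the exclusions given above. Same-numbered mice of 1 sex deviated together (r = 0.316 in males and 0.115 in females across genes, each sex giving 1 value), so a fit with 4 pairs was an alternative, beside no sex term, 2 normalizations, 2 filters on dim genes, other probe set choices, priors and weights, single sexes and each array left out. Arrays have no read depth; their number limits the precision. Python 3.11.15, numpy 2.4.6, pandas 2.3.3 and matplotlib 3.10.9 made the tables and plots.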

Additional observations from a re-analysis of the deposited data

Results flagged for a closer look

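In 5 of 64 sets of 4 arrays (32 named genes in 2 genotypes), 1 array lay far from the other 3, by a gap, as a share of the set's range, above Dixon's critical value for 4 samples; chance alone gives about 1 in 20 such sets. None of the 9 members was among them. Tnfaip3 in female WT 2 was at 5.09 against 4.96 to 4.97 on the other WT arrays (gap over range 0.94). Nfkb2 in female WT 2 was at 5.51 against 5.76 to 5.80 (0.869). Il7r in male WT 1 was at 4.28 against 4.76 to 4.84 (0.863). Defb3 in female WT 1 was at 4.90 against 6.44 to 6.72 (0.846). Tab2 in male null 2 was at 7.69 against 7.76 to 7.78 on the other null arrays (0.844).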

How the results depend on the processing

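Nfkbiz and Il17rc kept their direction and call in every setting run on both sexes. Within 1 sex, with 2 arrays a group, they stayed higher but uncalled: Nfkbiz by 0.66 in males and 0.51 in females, Il17rc by 0.39 and 0.34. Il23a was uncalled in males (0.28), in females (0.34) and over all non-control probe sets (0.31, adjusted p = 0.0526), and ran from 0.26 to 0.36 with 1 array left out (adjusted p 0.0234 to 0.101). The 6 uncalled members gained no call. Il17a turned to 0.11 in females and ran from -0.0723 to 0.0293 with an array left out. Il17f turned to -0.0508 in males and -0.0018 with array weights, and ran from -0.0589 to 0.107. Il17ra turned to -0.0627 in females. Il17re turned to 0.0823 in females and ran from -0.0904 to 0.0324. The cause of these changes was not tested. Il17a, Il17f and Il23a were removed by both filters on dim genes, and Il17c by that at the median level.

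Over all genes, 2170 were higher and 1837 lower; the counts were 802 and 388 in males, 231 and 142 in females (fewer arrays), and 1209 to 2290 and 843 to 1864 with 1 array left out. The fewest came without male null 2 (1209 higher) and without female null 1 (843 lower). With an array left out, the lists gave 0 to 1 other receptors lower, 2 to 3 type 17 genes higher and 1 to 2 lower, 0 to 2 signalling genes in either direction, 0 to 1 brakes lower and 13 to 20 response genes higher. With the replicate block of same-numbered pairs, 1 signalling gene was lower in place of 2 and 2545 genes were higher; among the members it changed no call. Signal over background limits Il17a, Il17f, Il17c and Il23a.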
